A study of Mus musculus with 2 samples.

Results

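The haemoglobin transcripts of satellite cell libraries were examined through 4 genes, Hba-a1, Hba-a2, Hbb-bs and Hbb-bt, taken by symbol from the 32285 counted features. Every deposited barcode was used, and barcodes were split by library and by the number of detected genes, under 500 or at least 500. The genes were proposed as a tracer of free RNA and chosen by their UMI counts in these same barcodes, so their levels below are a description with no test. The mice were 8 weeks of age and carried the Pax7 CreERT2/+ and Rosa26 mTmG/+ alleles, with which a tamoxifen-dependent Cre under Pax7 control switches a membrane reporter from Tomato to GFP. Quiescent satellite cells (QSCs) were sorted from uninjured tibialis anterior muscle, and activated satellite cells (ASCs) from the same muscle 1.5 days after an injection of fibre-killing cardiotoxin. Each group was 1 library made from a pool of mice, so group, library and sort cannot be told apart and no difference has a replicate check.

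Haemoglobin carries oxygen in red blood cells and is built from a pair of alpha and a pair of beta chains around haem. The genes are switched on in erythroid precursors of the bone marrow, and young red cells (reticulocytes) leave the marrow without a nucleus but still full of globin mRNA. Muscle stem cells and fibres are not known for making these adult chains. In droplet-based sequencing, RNA released from broken cells is captured together with any cell, so a transcript of a cell type that was not sorted can appear at a low level in many barcodes. A red cell caught in a droplet instead gives 1 barcode with very many such transcripts. Each transcript is counted once through its unique molecular identifier (UMI).

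Hba-a1 and Hba-a2 encode the adult alpha chain and lie close together on chromosome 11, at 32283511 to 32284465 and at 32296489 to 32297298 (GRCm38, plus strand). Hbb-bs and Hbb-bt encode the adult beta chain and lie on chromosome 7, at 103826534 to 103828096 and at 103812524 to 103813996 (minus strand). None of the 4 overlaps another annotated gene, and each has 3 exons. The copies of a pair are nearly the same sequence, which is shown here because it limits how far their counts can be told apart. The last 60 coding bases, stop codon included, are given with the base that differs within the pair in a capital, for Hba-a1 (chr11:32284332-32284391), Hba-a2 (chr11:32297149-32297208), Hbb-bs (chr7:103826665-103826724) and Hbb-bt (chr7:103812656-103812715), each inside the last coding exon.
Hba-a1: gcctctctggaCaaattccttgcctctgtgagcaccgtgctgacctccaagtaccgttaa
Hba-a2: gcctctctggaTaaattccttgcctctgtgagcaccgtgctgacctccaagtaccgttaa
Hbb-bs: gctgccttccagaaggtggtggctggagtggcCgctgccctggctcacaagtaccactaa
Hbb-bt: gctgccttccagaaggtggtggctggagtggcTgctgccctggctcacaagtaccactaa
The capital is the only difference between Hba-a1 and Hba-a2 over 429 coding bases, and likewise between Hbb-bs and Hbb-bt over 444. Of all stretches of 90 bases in the Hba-a2 transcript, 77.2% also occur in that of Hba-a1. Of those in the Hbb-bs transcript, 63.3% occur in that of Hbb-bt. No such stretch is shared between Hba-a1 and Hbb-bs. Counts within a pair are therefore uncertain, whereas alpha and beta chains can be told apart, and the comparisons of composition below rest on alpha against beta.

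The QSC library held 766 barcodes with 1346020 UMIs and the ASC library 1650 barcodes with 9059807 UMIs. Under 500 genes were detected in 246 QSC and 163 ASC barcodes, with medians of 653.5 and 701 UMIs, against 2155 and 3451 UMIs in the barcodes with more genes. Not all barcodes carried the profile of sorted satellite cells: 10 genes of muscle fibres took at least 5% of the UMIs in 20.2% of QSC and 64.8% of ASC barcodes with at least 500 genes, and in 86.6% and 81.0% of those with fewer. The libraries shared 4 barcode sequences, and among the barcodes concerned only 1, in the ASC library, held haemoglobin, with 2 UMIs.

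Haemoglobin was present in both libraries, but almost all of it lay in 5 of the 2416 barcodes. These 5 held 13310 of the 14091 haemoglobin UMIs (94.5%) and only 0.176% of all UMIs. In the QSC library 2 barcodes held 1874 of 2042 haemoglobin UMIs (91.8%), and in the ASC library 3 barcodes held 11436 of 12049 (94.9%). The summed haemoglobin level of a library was thus set by a few barcodes and does not measure RNA spread over cells.

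**Figure D1:**
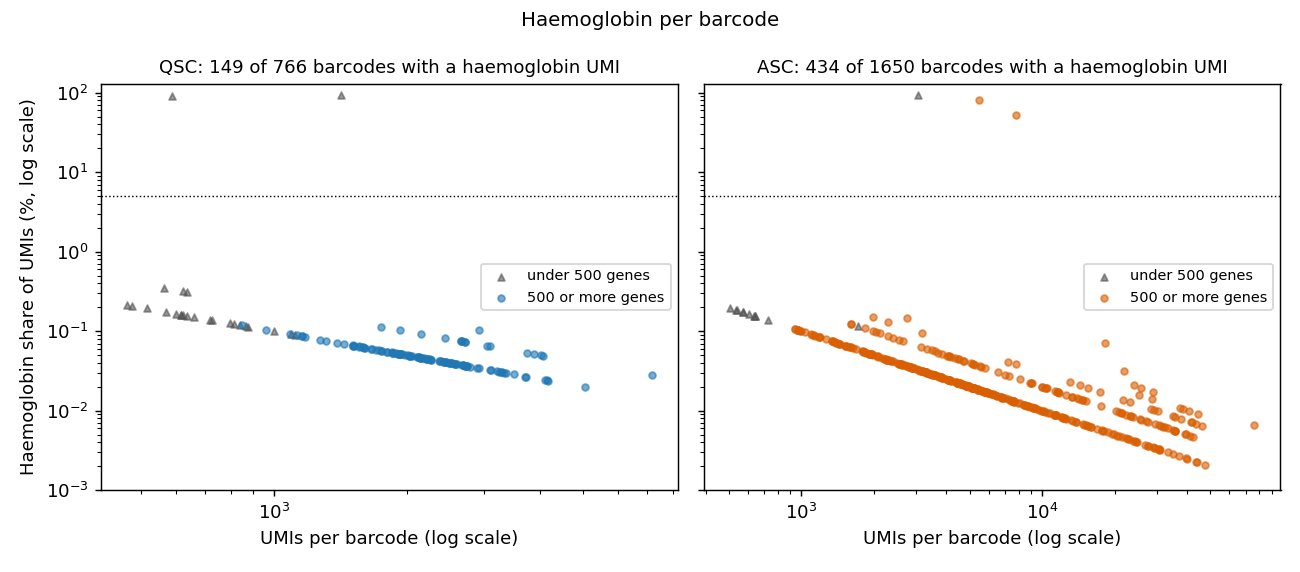
Each point is a barcode with at least 1 haemoglobin UMI, by its UMIs (x axis, log scale) and the percentage of them from the 4 haemoglobin genes (y axis, log scale); triangles have under 500 detected genes, circles at least 500, and the dotted line marks 5%. The 2 QSC and 3 ASC barcodes above the line lie between 52.6% and 94.5%, and all others at or below 0.354%; the slanting rows are barcodes with 1, 2 or more UMIs.

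No barcode lay between the 2 kinds. Haemoglobin took 1338 of 1424 UMIs in the first of the QSC barcodes and 536 of 588 UMIs (91.2%) in the second. In the ASC library it took 94.5% of 3052 UMIs, 81.3% of 5491 UMIs and 52.6% of 7781 UMIs. The highest share in any other barcode was 0.354% in the QSC library, on 2 UMIs, and 0.198% in the ASC library, on 1 UMI. The 5 are called majority barcodes below and the other 2411 remaining barcodes, a split at 5% of UMIs. The majority barcodes had few genes for their depth. Both QSC ones (74 and 50 genes) and the first ASC one (128 genes) fell under 500 genes, whereas the other two ASC ones (541 and 1135 genes) passed that limit.

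The majority barcodes were then compared with markers of red cells and of other cell types. Alas2, which encodes the erythroid enzyme that starts haem synthesis, had 2 UMIs in the QSC library, both in the first majority barcode. It had 19 UMIs in the ASC library, of which 6, 11 and 1 lay in the 3 majority barcodes and 1 in a remaining barcode without haemoglobin. Alas2 was therefore found in 4 of 5 majority barcodes, and not in the QSC one with 588 UMIs. Among the other erythroid genes, Slc4a1, Gata1, Hemgn, Epb42, Rhag, Rhd, Trim58 and Cldn13, most of them genes of the red cell membrane or of earlier precursors, were at 0 in both libraries. Klf1, Ermap and Epor had 2 to 4 UMIs where found, all in remaining barcodes.

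Among transcripts that reticulocytes keep but that other cells also make, Ube2l6, a conjugating enzyme of the ubiquitin system, had 1 UMI in a QSC majority barcode and 4 and 2 UMIs in the first and second ASC ones. Bnip3l, which reticulocytes use to clear mitochondria, had 3 UMIs in the QSC majority barcodes and none in the ASC ones. Bpgm and Fech, enzymes of red cell metabolism and of haem synthesis, had 2 UMIs each in the second ASC majority barcode but 301 and 494 in remaining ASC barcodes. The third ASC majority barcode had no UMI from these genes.

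What else the majority barcodes held differed among them. Immune, neutrophil, platelet and endothelial markers were at 0 in all 5. Of the satellite cell markers 1 UMI was found, in the third ASC barcode. That barcode also held 9 UMIs of fibroblast genes, 6 from Col3a1 and 3 from Gsn, and the first QSC one held 1, from Gsn. Outside haemoglobin the first QSC barcode held 86 UMIs, the second 52 and the first ASC one 169, with fibre genes at 6.98%, 11.5% and 14.2% of them. These percentages rest on 6, 6 and 24 UMIs. Summed over the majority barcodes, fibre genes stood at 86957 (QSC) and 49714 (ASC) per 1e6 UMIs outside haemoglobin. In the remaining barcodes they stood at 70955 and 72534 per 1e6 UMIs, so fibre transcripts were not particular to the majority barcodes. The second ASC barcode held 1028 other UMIs, of which fibre genes took 13.6%, led by Acta1 (skeletal actin, 31 UMIs), Tnnc2 (fast troponin C, 29 UMIs) and Mylpf (myosin light chain, 22 UMIs). The third ASC barcode held 3691 other UMIs, of which fibre genes took 2.14%, and these were led by the nuclear RNA Malat1 (140 UMIs) and ribosomal genes such as Rplp0 (47 UMIs). Malat1 stood at 3.79% of its other UMIs, against 0.494% in the remaining ASC barcodes. A mature red cell has no nucleus. Whether this barcode joined a red cell and another cell was not tested.

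The remaining barcodes showed another picture: few haemoglobin UMIs each, over many barcodes. In the QSC library 147 of 764 had any (19.2%), of which 127 had 1 UMI, 19 had 2 and 1 had 3. In the ASC library 431 of 1647 had any (26.2%), of which 312 had 1 UMI, 85 had 2, 21 had 3 and 13 had 4 or more. Their level was 125 counts per 1e6 UMIs (CPM) in the QSC library (95% interval 107 to 145) and 67.8 CPM in the ASC library (62.5 to 73.4). These intervals, and all below, cover counting error only.

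The 4 genes kept one order in the remaining QSC barcodes, with Hbb-bs at 88.5 CPM (119 UMIs), Hba-a2 at 19.3 CPM (26 UMIs), Hba-a1 at 14.1 CPM (19 UMIs) and Hbb-bt at 2.98 CPM (4 UMIs). In the remaining ASC barcodes Hbb-bs stood at 33.8 CPM (306 UMIs), Hba-a1 at 15.7 CPM (142 UMIs), Hba-a2 at 13.6 CPM (123 UMIs) and Hbb-bt at 4.64 CPM (42 UMIs). Hbb-bs was the highest and Hbb-bt the lowest in both, and the intervals of Hba-a1 and Hba-a2 overlapped in both. A barcode with 1 haemoglobin UMI cannot hold both chains, and 312 of 431 ASC and 127 of 147 QSC barcodes with haemoglobin had only 1. Both an alpha and a beta UMI were held by 65 ASC barcodes, of 223 with alpha and 273 with beta. In the QSC library 10 did so, of 45 and 112. Whether the chains met more or less often than by independent placement was not tested. All 4 genes were found together in 1 remaining barcode, in the ASC library.

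Splitting barcodes by detected genes gave different pictures with and without the majority barcodes. Over all barcodes, haemoglobin took 1.10% of the UMIs of QSC barcodes under 500 genes and 0.0121% of those with more, a ratio of 90.9 (95% interval 76.6 to 109). All 4 genes were at least 2-fold higher in the barcodes under 500 genes, as were 12.1% of all genes tested, with the median gene at a log2 ratio of -0.66. In the ASC library the shares were 2.44% and 0.102%, a ratio of 23.8 (22.8 to 24.8), again with all 4 genes at least 2-fold higher, as were 15.0% of all genes tested. Since the genes were chosen for these values, nothing is read from the counts of genes.

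Without the majority barcodes the ratio fell to 1.26 in the QSC library (0.794 to 1.92; 26 UMIs under 500 genes) and to 1.67 in the ASC library (0.885 to 2.88; 13 UMIs). Both intervals include 1, so a difference between barcodes with few and with many genes was not detectable at this depth. Detection was compared after each barcode was thinned to 500 UMIs, which left out 37 QSC barcodes under 500 genes. A haemoglobin UMI was then found in 6.28% of remaining QSC barcodes under 500 genes (3.39 to 10.5) and 5.96% of those with more (4.09 to 8.36). In the ASC library the shares were 4.94% (2.16 to 9.50) and 3.91% (2.98 to 5.02). Unthinned, they were 9.43% and 23.8% in the QSC library and 7.41% and 28.2% in the ASC library, so the larger share among gene-rich barcodes was lost at equal depth.

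Whether haemoglobin in the remaining barcodes followed their depth was described next. The mean number of UMIs rose with depth in the ASC library, from 0.0854 per barcode at 500 to 1000 UMIs to 0.653 at 8000 to 16000 UMIs and 1.66 at 16000 or more. In the QSC library it was 0.116 at 500 to 1000 UMIs, 0.212 at 1000 to 2000, 0.302 at 2000 to 4000 and 0.476 at 4000 to 8000, where 21 barcodes gave 10 UMIs. The number was thus not the same in every droplet. As a share of UMIs, haemoglobin in the ASC library lay at 0.0114% (0.00667 to 0.0183) at 500 to 1000 UMIs, 0.0109% (0.00816 to 0.0142) at 1000 to 2000 and 0.00586% (0.00506 to 0.00674) at 16000 or more. Between the last 2 of these values the intervals do not overlap, so the share fell while the number rose. The share of fibre transcripts changed over the same bins, from 13.4% of UMIs at 1000 to 2000 to 2.66% at 16000 or more, so the kinds of barcodes changed with depth; levels within a kind are given below. In the QSC library the share was 0.0164% at 500 to 1000 UMIs and 0.0101% at 4000 to 8000, with overlapping intervals.

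**Figure D2:**
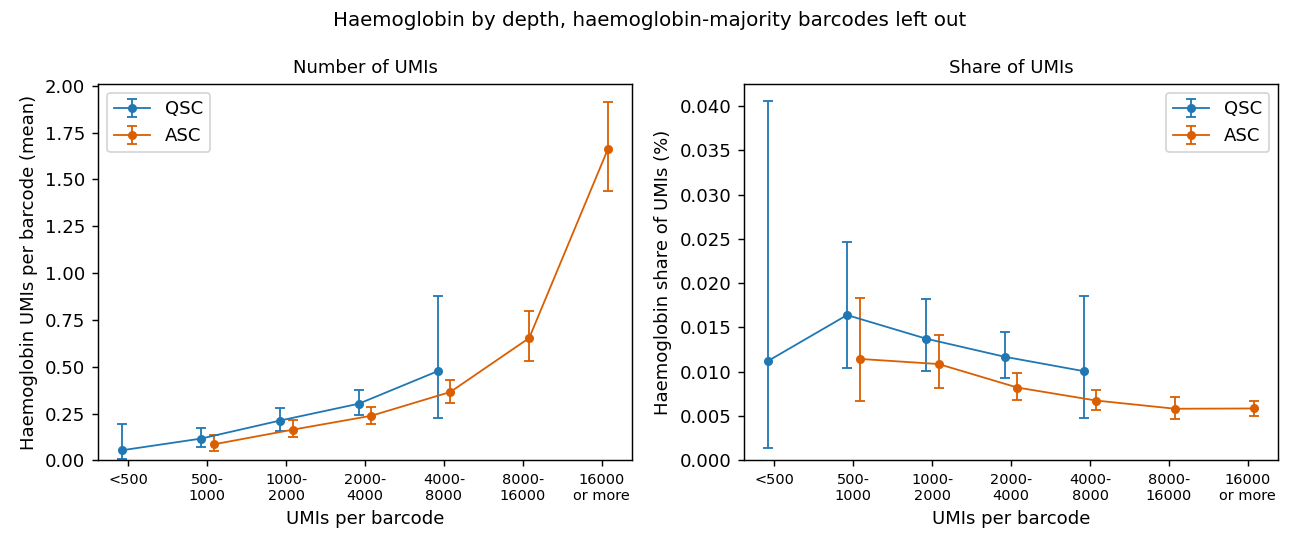
Mean number of haemoglobin UMIs per barcode (left) and haemoglobin share of UMIs in percent (right) by UMIs per barcode, without the 5 majority barcodes, in QSC (blue) and ASC (orange) libraries; bars are exact 95% intervals for counting error, and bins of under 20 barcodes are left out. The number rises to 1.66 in the deepest ASC bin while the share there is 0.00586%.

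The spread over barcodes was measured by the variance over the mean of the UMI number, which is 1 where UMIs fall on barcodes independently at a single rate. Over all barcodes thinned to 500 UMIs it was 434 for haemoglobin in QSC barcodes and 374 in ASC barcodes, above every gene with at least 50 UMIs (944 and 1994 genes). Without the majority barcodes it was 1.04 in both, against a median over genes of 1.17 in the QSC and 1.05 in the ASC library. Marker genes with at least 50 UMIs ranged from values close to that of haemoglobin to far larger ones. In the ASC library 7 immune genes lay between 1.13 (Cd68) and 8.81 (Lyz2), 4 satellite cell genes between 1.12 (Cdh15) and 2.90 (Myog), and the neutrophil genes S100a9 and S100a8 at 15.8 and 17.5. In the QSC library 3 immune genes lay between 3.07 (C1qa) and 19.8 (Cd74) and 3 satellite cell genes between 1.21 (Cdh15) and 1.34 (Chodl). A value near 1 was thus not particular to haemoglobin. The haemoglobin values rest on 71 ASC and 53 QSC UMIs after thinning. Listed genes with similar UMI numbers differed widely. They lay between 0.980 (Bnip3l, 77 UMIs) and 8.80 (Cd74, 78 UMIs) in the ASC library. In the QSC library they lay between 1.21 (Cdh15, 51 UMIs) and 5.87 (Fabp4, 71 UMIs). All 10 fibre genes lay above haemoglobin, from 1.44 to 14.05 (QSC) and from 1.57 to 7.055 (ASC). Without thinning, the value for haemoglobin lay between 0.875 and 1.20 in every depth bin of at least 20 remaining barcodes up to 16000 UMIs in either library, where the mean reached 0.653.

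The deepest ASC barcodes departed from this, with a variance over the mean of 1.85 over 116 barcodes. This bin was not thinned and has no upper limit, reaching 76126 UMIs, and unequal depth within a bin can itself raise the value above 1. How much of it came from depth was not tested. Here 1 barcode of 18196 UMIs held 13 haemoglobin UMIs, 9 from Hba-a1, 3 from Hba-a2, 1 from Hbb-bs and none from Hbb-bt. Without it the value was 1.26. This barcode carried satellite cell markers, and 12 of its 13 haemoglobin UMIs were alpha, unlike the majority barcodes.

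The composition of haemoglobin was compared between the majority and the remaining barcodes. Alpha chains made up 42.3% and 36.8% of haemoglobin UMIs in the QSC majority barcodes and 51.5%, 54.2% and 51.7% in the ASC ones, so every QSC value was below every ASC value. In the remaining barcodes alpha made up 26.8% in the QSC library (45 of 168, 20.3 to 34.2) and 43.2% in the ASC library (265 of 613, 39.3 to 47.3). These lay below the summed majority barcodes of the same library, at 40.7% (38.5 to 43.0) and 52.6% (51.7 to 53.5), with intervals that do not overlap. Taken alone, the second QSC majority barcode (36.8%, 32.7 to 41.0) did overlap the remaining QSC barcodes. The remaining haemoglobin therefore held fewer alpha chains than the summed majority barcodes, beyond counting error, in either library. What moved with this was not tested, and 2 or 3 majority barcodes need not represent the red cells of a muscle.

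**Figure D3:**
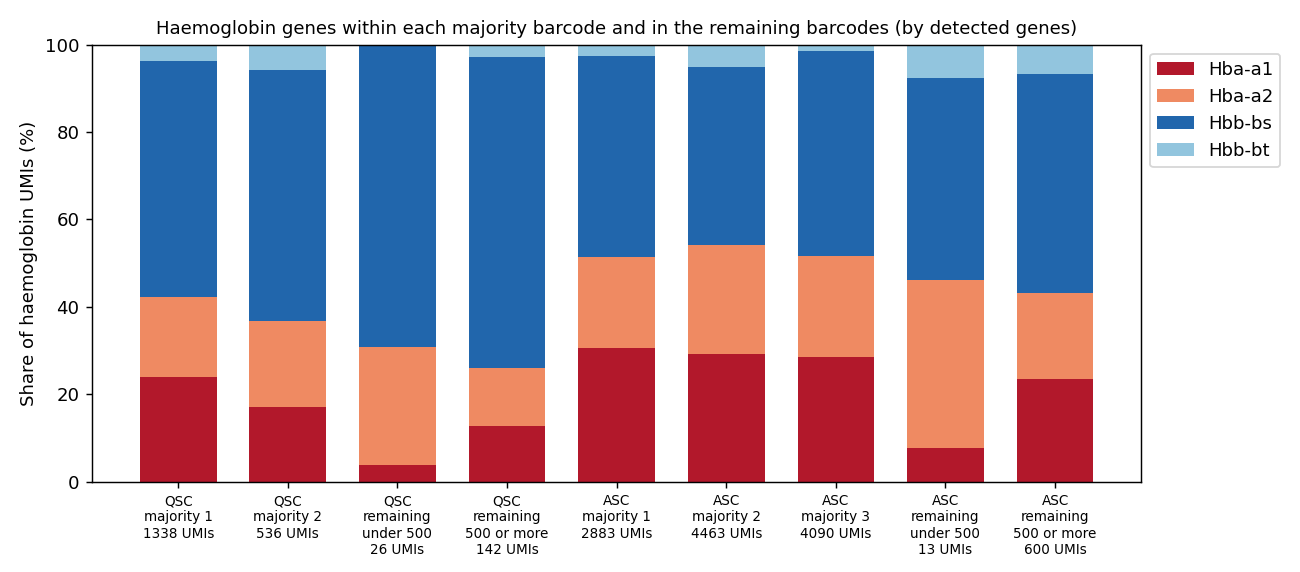
Percentage of haemoglobin UMIs from each gene in the 5 majority barcodes and in the remaining barcodes by number of detected genes (under 500, or 500 or more), with the number of UMIs under each bar. Alpha genes (red and orange) make up 36.8% to 54.2% in the majority barcodes and 26.1% and 43.2% in the remaining QSC and ASC barcodes with at least 500 genes; the bars for the remaining barcodes under 500 genes rest on 26 and 13 UMIs.

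Within the chains, Hba-a1 made up 54.0% of alpha UMIs in the QSC majority barcodes and 55.7% in the ASC ones, with 46.7% to 59.5% among the 5. Hbb-bt made up 7.38% and 6.55% of beta UMIs, with 2.79% to 10.95% among the 5. In the remaining barcodes Hba-a1 was at 42.2% of alpha UMIs (27.7 to 57.8) in the QSC library and 53.6% (47.4 to 59.7) in the ASC library. Hbb-bt was at 3.25% (0.893 to 8.12) and 12.1% (8.84 to 15.96) of beta UMIs. These shares between near-identical copies depend on where reads fell and are uncertain.

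The kinds of barcodes were then compared. Barcodes with at least 500 genes were placed by marker genes: immune-rich with at least 5 of 12 immune genes, else fibre-rich with at least 5% fibre UMIs, else satellite-marked with at least 2 of 6 satellite cell genes (Pax7, Myf5, Myod1, Myog, Cdh15, Chodl), else unmarked. These are ranges of marker content rather than cell types. In remaining QSC barcodes haemoglobin stood at 125 CPM in satellite-marked (90 UMIs, 101 to 154), 214 CPM in immune-rich (7 UMIs, 86.2 to 441), 141 CPM in unmarked (29 UMIs, 94.4 to 202) and 74.1 CPM in fibre-rich barcodes (16 UMIs, 42.3 to 120). In remaining ASC barcodes it stood at 60.7 CPM (281 UMIs, 53.8 to 68.2), 79.1 CPM (72 UMIs, 61.9 to 99.7), 72.3 CPM (27 UMIs, 47.6 to 105) and 73.0 CPM (220 UMIs, 63.7 to 83.3) in the same order. Every kind held haemoglobin, and within a library the intervals of all kinds overlapped. Where this haemoglobin came from was not tested.

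Within satellite-marked and within fibre-rich ASC barcodes the haemoglobin level fell over the shallower bins and was close to level in the deepest ones. In satellite-marked barcodes it was 133 CPM (83.6 to 202) at 2000 to 4000 UMIs and 69.5 CPM (49.7 to 94.7) at 4000 to 8000. It was 56.8 CPM (43.5 to 73.0) at 8000 to 16000 and 56.3 CPM (47.8 to 65.8) at 16000 or more. In fibre-rich barcodes it was 155.5 CPM (57.1 to 338.5, 6 UMIs) at 500 to 1000 UMIs and 115 CPM (84.9 to 152) at 1000 to 2000. It was 71.4 CPM (56.4 to 89.0) at 2000 to 4000 and 59.1 CPM (45.9 to 74.9) at 4000 to 8000. At 8000 to 16000 it was 59.6 CPM (33.4 to 98.4, 15 UMIs). The intervals of the first and last satellite-marked values do not overlap. Among fibre-rich ones, those at 1000 to 2000 and 4000 to 8000 UMIs do not overlap, but those of the shallowest and deepest bins do. By rising depth the level was 103 and 58.3 CPM in immune-rich and 54.6, 117 and 60.7 CPM in unmarked ASC barcodes, with overlapping intervals within each kind. In QSC satellite-marked barcodes it was 138 CPM (84.2 to 213) at 1000 to 2000 UMIs and 125 CPM (96.7 to 158) at 2000 to 4000, with overlapping intervals. QSC fibre-rich barcodes had 126 CPM (65.2 to 220, 12 UMIs) and 23.5 CPM (2.85 to 84.9, 2 UMIs) in the same bins. QSC unmarked ones had 139 and 143 CPM. The intervals overlapped within each of these kinds. These bins were taken without the majority barcodes and held at least 20 barcodes each.

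**Figure D4:**
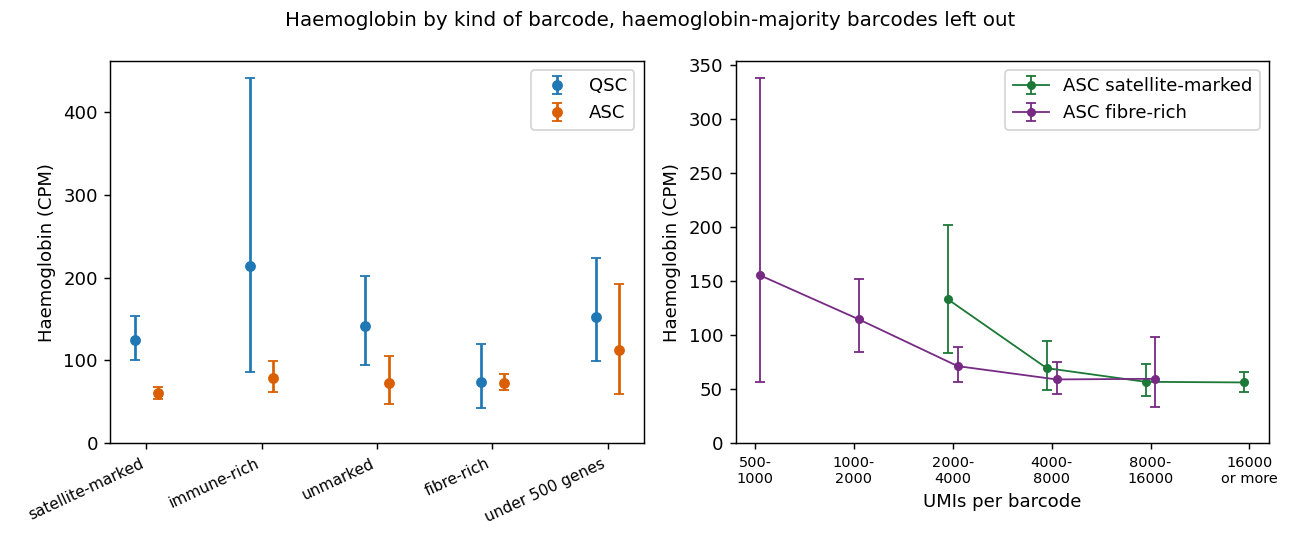
Haemoglobin in CPM without the 5 majority barcodes, by kind of barcode in QSC (blue) and ASC (orange) libraries (left), and by UMIs per barcode in ASC satellite-marked (green) and fibre-rich (purple) barcodes (right); both axes are linear from 0, bars are exact 95% intervals for counting error, and depth bins of under 20 barcodes are left out. On the left every kind with at least 500 genes lies between 60.7 and 214 CPM, and on the right satellite-marked barcodes go from 133 to 56.3 CPM with depth.

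The ASC library was compared with the QSC library last, and the direction depended on the majority barcodes. Over all barcodes with at least 500 genes, haemoglobin stood at 1024 CPM in the ASC and 121 CPM in the QSC library, a ratio of 8.46 (7.17 to 10.1). All 4 genes were at least 2-fold higher, as were 15.7% of all genes tested, with the median gene at a log2 ratio of -0.14. Without the 2 ASC majority barcodes of this class, out of 1487 barcodes, it was 0.555 (0.462 to 0.672). Then 1 of 4 genes, Hbb-bs, was at least 2-fold lower, as were 23.7% of all genes tested. Under 500 genes the ratio was 2.22 (2.09 to 2.35) over all barcodes, with Hba-a1 and Hba-a2, 2 of 4 genes, at least 2-fold higher, as were 17.6% of all genes tested. It was 0.738 (0.348 to 1.49) without the majority barcodes.

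The lower level in the remaining ASC barcodes was seen in the beta chains. Alpha chains stood at 33.5 CPM in the QSC (24.4 to 44.8) and 29.3 CPM in the ASC library (25.9 to 33.1), a ratio of 0.875 (0.636 to 1.23). Beta chains stood at 91.5 CPM (76.1 to 109) and 38.5 CPM (34.5 to 42.7), a ratio of 0.420 (0.341 to 0.521), and the intervals of the alpha and beta ratios do not overlap. Hbb-bs was at 0.382 times its QSC level (0.308 to 0.476), Hba-a1 at 1.11 times (0.686 to 1.90) and Hba-a2 at 0.703 times (0.458 to 1.12). For Hbb-bt, 4 QSC UMIs leave the ratio between 0.566 and 5.99.

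The difference between libraries was also taken within depth and kind, as ASC barcodes were deeper and more often fibre-rich. In 4 depth bins from 500 to 8000 UMIs the ratio of ASC over QSC was between 0.670 and 0.791, with an interval below 1 only at 2000 to 4000 UMIs (0.703, 0.525 to 0.944). By kind it was 0.485 (0.381 to 0.622) in satellite-marked, 0.369 (0.170 to 0.952) in immune-rich, 0.512 (0.292 to 0.897) in unmarked and 0.985 (0.593 to 1.75) in fibre-rich barcodes, so 3 of 4 intervals lay below 1. In satellite-marked barcodes of 2000 to 4000 UMIs haemoglobin stood at 125 CPM in the QSC (68 UMIs, 210 barcodes) and 133 CPM in the ASC library (22 UMIs, 51 barcodes), a ratio of 1.07 (0.630 to 1.75). At 1000 to 2000 UMIs only 5 satellite-marked ASC barcodes were present, with 0 haemoglobin UMIs, against 20 UMIs in 86 QSC ones. In fibre-rich barcodes the ratio was 0.909 (0.477 to 1.88) at 1000 to 2000 UMIs, on 12 QSC and 49 ASC UMIs. It was 3.04 (0.813 to 25.5) at 2000 to 4000 UMIs, on only 2 UMIs in 32 QSC barcodes against 78 UMIs in 381 ASC ones. The lower ASC level was thus not detectable in these bins of matched depth and kind, within intervals that still allow it.

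Among the other globin genes, the embryonic and theta genes Hba-x, Hbb-y, Hbb-bh1, Hbb-bh2, Hbq1a and Hbq1b had 0 UMIs in both libraries, which, taken as a floor of 3 counts per library, allows up to 2.23 CPM in the QSC and 0.331 CPM in the ASC library. Mb, the myoglobin of muscle fibres, had 2389 QSC UMIs over 503 barcodes and 13201 ASC UMIs over 1417 barcodes, of which 2 lay in majority barcodes. Cygb had 29 and 20 UMIs and Ngb 1 in each library.

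The 4 genes moved together across barcodes where the majority barcodes were included. Across all barcodes Pearson's r between log2 levels was 0.403 to 0.744 for the 6 pairs of genes in the QSC library (766 barcodes) and 0.412 to 0.604 in the ASC library (1650 barcodes). Without the majority barcodes it was -0.0284 to 0.0526 and -0.0360 to 0.0915. The barcodes of a library share its library and depth range, so these values are descriptions. The genes most like summed haemoglobin reached only 0.106 to 0.113 in the QSC library (Ilf2, Ddost, Aprt, Arf4 and Rbms1, of 1728 genes) and 0.0935 to 0.114 in the ASC library (Atp2a2, Ube2l6, Sox11, Rnf4 and 5430431A17Rik, of 6428 genes), too weak in such sparse counts to be a finding.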

How the data were processed

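Libraries were prepared with droplet-based 3' chemistry (10x Genomics, v2). The deposited values are raw UMI counts per gene and barcode, which the authors made with Cell Ranger. The matrix headers name release 6.0.2, while the submitters' processing notes name 7.1.0 and the mm10 build. The counting of reads that match several copies and the calling of cells are not given in the sources used here. No barcode was filtered. UMIs were summed over barcodes and given as CPM (per 1e6 UMIs) or percent, with exact Clopper-Pearson or Poisson 95% intervals, and ratios with exact conditional binomial intervals. With 1 library per group no test was possible. Ratios over all genes used genes with at least 20 UMIs in the 2 sets and 0.5 added to each count. Likeness was taken on log2(CPM / 100 + 1) for genes with at least 100 UMIs. Thinning drew UMIs without replacement, with a fixed seed, in Python 3.11.15 with numpy 2.4.6 and scipy 1.17.1. The ratio intervals, the calls of a 2-fold change, the thinning and the variance over the mean were tested on simulated data, the other steps were not. Gene positions and sequences are from GENCODE M21 transcripts (GRCm38, the assembly of mm10), in which the identifiers of all 4 genes matched the features. The named genes were the 4 members, marker lists, the other globins and the 5 genes most like haemoglobin per library. Members and lists were chosen with earlier results of these data known. Doublets were not removed. Some genes of the marker lists are not reported here.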

Additional observations from a re-analysis of the deposited data

How the results depend on the processing

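Of the recomputed values, 48 stayed within the counting interval of the value in the report, 61 moved and 4 changed direction. No paired analysis was possible because each group had 1 library. Leaving out barcodes of at least 5% haemoglobin (for depth and spread, chosen after seeing the data) gave shares of 0.0152% (QSC) and 0.0112% (ASC) under 500 genes and 0.00672% in ASC barcodes with more. The ratios of ASC over QSC turned, to 0.738 and 0.555, and those of few over many genes became 1.26 (QSC) and 1.67 (ASC). Alpha shares became 30.8% (QSC) and 46.2% (ASC) under 500 genes and 43.2% in ASC barcodes with more, and unmarked ASC barcodes 0.00723%. UMIs per barcode became 0.116 and 0.212 (QSC, from 500 and 1000 UMIs; 2.81 and 6.11 with all) and 0.238 and 0.365 (ASC, from 2000 and 4000; 6.41 and 22.2 with all). The top 1% of barcodes held 20.8% and 28.2% of haemoglobin UMIs in place of 95.5% and 95.5%. Leaving out only the top barcode of each class gave shares of 0.328% (QSC under 500 genes), 0.0112% (ASC under 500) and 0.0525% (ASC with more). It gave ratios of ASC over QSC of 0.0342 (turned) and 4.42, ratios of few over many genes of 27.6 (QSC) and 0.214 (ASC, turned), and alpha shares of 36.5%, 46.2% and 50.6%.

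With a limit of 200 genes the lower class had shares of 29.4% (QSC) and 33.3% (ASC), ratios of few over many genes of 2344 and 329, and a ratio of ASC over QSC of 1.13. That class included both QSC majority barcodes (74 and 50 genes) and the first ASC one (128 genes), so these values do not describe gene-poor barcodes in general. With 1000 genes the lower class had 0.265% and 0.720% and the upper ASC class 0.0573%, with ratios of 21.1 and 12.6 and of 2.72 and 4.56. At most 10% mitochondrial UMIs gave 1.18% and 3.33% under 500 genes, a ratio of ASC over QSC of 2.81 there, and 32.4 for few over many ASC genes. The study's limit of 1% gave 2.75% (QSC) and 4.18% (ASC) under 500 genes and 0.00779% and 0.139% with more. Ratios of ASC over QSC were 1.52 and 17.8, and those of few over many genes 353 and 30.1. Median mitochondrial shares were 4.91% (QSC) and 2.405% (ASC) in satellite-marked barcodes, against 0.720% and 0.178% in fibre-rich ones. The limit thus changed the mix of kinds. It also left out the third ASC majority barcode, at 1.16%, and kept the second, at 0.0546%. The cause of the moved values was not tested. Outside mitochondrial and fibre genes the shares were 1.45%, 3.20% and, for ASC with more genes, 0.112%, with 28.5 for few over many ASC genes. Over all barcodes, detection was 7.18% and 5.96% (QSC) and 5.52% and 4.03% (ASC) at 500 UMIs. Thinning to 1000 UMIs gave 15.8% and 12.5% (QSC) and 22.2% and 7.35% (ASC). Under 500 genes these rest on only 3 of 19 QSC and 2 of 9 ASC barcodes, with 227 and 154 left out. Without the majority barcodes they were 2 of 18 and 1 of 8. The intervals of the classes overlapped in both libraries, so no difference is read from these values. Thinning to 300 gave 3.85% (QSC) and 2.42% (ASC) with at least 500 genes, and no thinning gave 23.8% and 28.3% there. Unmarked ASC barcodes moved from 2.22% to 1.64% with fibre-rich from 10%, and to 3.02% with immune-rich from 3 genes. Counts of 7 to 29 UMIs limit the kinds of QSC barcodes.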
